A study of Mus musculus with 14 samples.

Results

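The 10 genes described here build the MHC class I antigen presentation pathway of the mouse: H2-K1, H2-D1, B2m, Tap1, Tap2, Tapbp, Psmb8, Psmb9, Nlrc5 and Erap1. They were taken by gene name from the 55414 genes of the count table. All 10 were present and all 10 passed the filter on low counts that left 12851 genes to be tested. The rule is a list of names and uses no measured value, though earlier results of these data were known when the list was drawn up. RNA came from primary bone marrow-derived macrophages (pBMDMs) of wildtype C57BL/6N mice, kept with M-CSF and exposed for 24 h to 1 of 5 media. Supernatants were taken from Pfa1 cells, a line of mouse embryonic fibroblasts in which 4-hydroxytamoxifen (4OHT) removes GPX4, the enzyme that repairs peroxidised lipids, and so starts ferroptosis. The groups were supernatant of untreated fibroblasts (ctrl), of fibroblasts given the ferroptosis inhibitor ferrostatin-1 (Fer1), of fibroblasts given both agents (4OHT+Fer1) and of fibroblasts given 4OHT alone, the ferroptotic supernatant (4OHT), with 3 replicates each. The fifth group had fresh medium that had not been on fibroblasts (medium), with 2 replicates. GPX4 was lost in the fibroblasts, not in the macrophages, and 4OHT and ferrostatin-1 could be carried over with the supernatant. The total count per sample was between 7823051 and 11052352, and 3 counts, taken as the smallest amount distinguishable from none, came to between 0.272 and 0.381 CPM (counts of a gene relative to the library's total, adjusted by edgeR's TMM factors). Libraries were primed at the 3′ end, so CPM values were compared between samples and not between genes.

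MHC class I molecules display peptides from the inside of a cell to CD8 T cells. A heavy chain (here H2-K1 or H2-D1) pairs with beta-2-microglobulin (B2m). Peptides are cut by the proteasome, whose immunoproteasome form carries Psmb8 and Psmb9, are pumped into the endoplasmic reticulum by the Tap1 and Tap2 transporter, are trimmed there by Erap1, and are loaded with the help of tapasin (Tapbp). Nlrc5 is a transactivator that drives class I genes, and interferons are known to raise most of the pathway. Macrophages use the pathway for their own proteins and, by cross-presentation, for proteins they have taken up.

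In the GENCODE M21 annotation of GRCm38, 7 of the 10 genes lie on chromosome 17. Psmb9 (chr17:34181987-34187764, minus strand), Tap1 (chr17:34187553-34197225, plus strand), Psmb8 (chr17:34197721-34201454, plus strand) and Tap2 (chr17:34203527-34216321, plus strand) sit within 34335 bases, and Psmb9 and Tap1 are arranged head to head and share 212 bases. Tapbp (chr17:33915899-33929292, plus strand), H2-K1 (chr17:33996017-34000347, minus strand) and H2-D1 (chr17:35262730-35267499, plus strand) lie on either side. B2m is at chr2:122147686-122153083, Nlrc5 at chr8:94434356-94527272 and Erap1 at chr13:74639568-74693201, all on the plus strand.

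The promoters of H2-K1 and B2m are shown because these genes make the 2 chains of 1 molecule and can be read without overlapping any annotated exon. They are RefSeq sequences of build GRCm38.p6, printed 5′ to 3′ on the strand of the gene, ending just before the start site. Capitals mark matches on either strand to motifs of factors known for this pathway: the IRF core AANNGAAA, the longer ISRE core GAAANNGAA, the kappaB letters GGNNTTNCC, the GAS letters TTCNNNGAA, the CRE core TGACG and the CCAAT box CCAAT. The IRF letters were added after the ISRE letters had been seen to miss H2-K1.
H2-K1 promoter, chr17:34000348-34000597, minus strand: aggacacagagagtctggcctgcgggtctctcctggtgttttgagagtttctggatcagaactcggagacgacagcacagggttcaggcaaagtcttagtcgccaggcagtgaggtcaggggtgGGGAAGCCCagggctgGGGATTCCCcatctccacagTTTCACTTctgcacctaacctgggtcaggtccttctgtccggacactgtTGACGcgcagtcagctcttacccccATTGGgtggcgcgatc
B2m promoter, chr2:122147437-122147685, plus strand: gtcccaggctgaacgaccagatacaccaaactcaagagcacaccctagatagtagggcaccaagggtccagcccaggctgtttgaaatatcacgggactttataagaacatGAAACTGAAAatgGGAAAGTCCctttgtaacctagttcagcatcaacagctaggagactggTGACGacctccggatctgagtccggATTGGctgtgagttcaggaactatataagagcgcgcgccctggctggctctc
H2-K1 held, in order, 2 kappaB matches, 1 IRF core, 1 CRE core and 1 CCAAT box. B2m held 1 IRF core overlapping 1 ISRE core, then 1 kappaB match, 1 CRE core and 1 CCAAT box. The promoter of H2-D1 was 87.4% identical to that of H2-K1 over 190 bases aligned without gaps and had the same matches in the same order. Its window held a further CCAAT box, which lies beyond the aligned bases. The window of another H2-K1 start site, not printed here, also held a further CCAAT box, at -6 to -2, so this box does not set the 2 genes apart.

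Of the 8 members with a promoter in the table, 3 held the IRF core (H2-K1, H2-D1, B2m), which 21.3% of all 32817 promoter windows of 250 bases also held. The kappaB letters were in the same 3, against 13.5% of all windows. The CRE core was in 5 of the 8, against 17.8% of all windows, and the CCAAT box in 6 of the 8, against 33.8%. The GAS letters were found in Psmb8 alone, against 7.02% of all windows, and the ISRE core in B2m and Erap1, against 7.12%. Tap1 and Psmb9 share most of their window, read from opposite strands, and so share their CRE core and their CCAAT box. Tap2 and Nlrc5 had no sequence in the table. The windows end at RefSeq start sites. By the GENCODE coordinates, those of H2-D1, Tapbp, Psmb8, Psmb9 and Erap1 lie within the annotated gene and not before its outermost start.

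**Figure D1:**
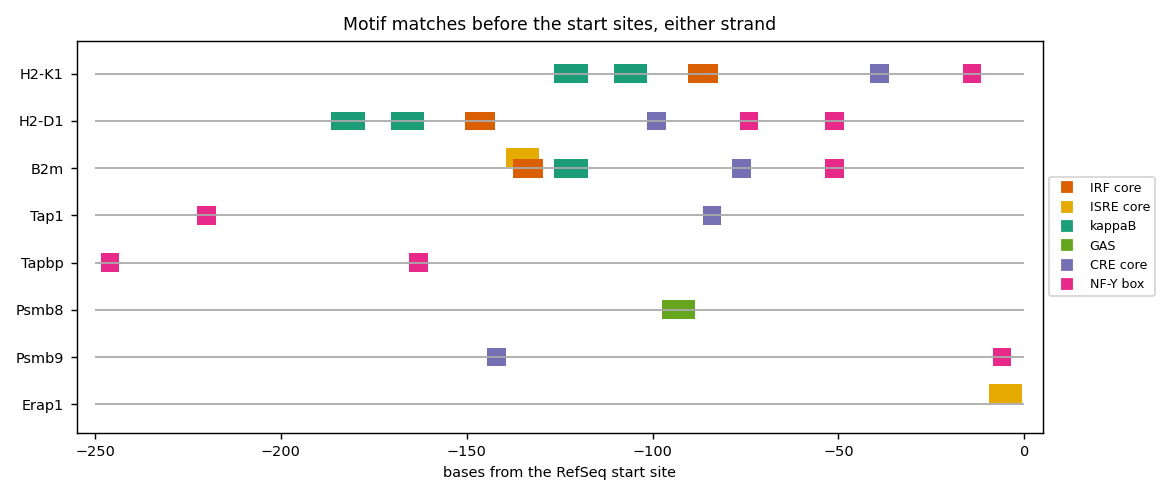
Motif matches in the 250 bases before the RefSeq start site of 8 member genes. The horizontal axis is the distance from the start site in bases, each row is a gene and each coloured block a match on either strand. The rows of H2-K1, H2-D1 and B2m carry kappaB, IRF core, CRE core and CCAAT box (NF-Y box) matches, and the Tapbp row carries CCAAT boxes only.

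Macrophage marker genes checked the label of the cells. All 8 macrophage markers, among them Adgre1, Itgam, Csf1r and Lyz2, were detected in every sample, and their summed level was between 18862 and 43878 CPM. Of 7 T and NK cell markers, 4 (Cd3e, Cd3g, Ncr1 and Nkg7) had 0 counts in every sample and the 7 summed to at most 0.771 CPM. Of 6 neutrophil markers, Ly6g and Elane had 0 counts in every sample, while S100a8 and S100a9 were detected in all 14, at 2.21 to 21.0 CPM and 0.633 to 24.6 CPM. The 5 B cell markers summed to at most 3.50 CPM. In bulk RNA, fewer cells of a type and less RNA per cell cannot be told apart.

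Ferroptotic supernatant was compared with supernatant of untreated fibroblasts, which can differ both in what the cells release and in what they consume. None of the 10 class I genes changed at an adjusted p under 0.05 (quasi-likelihood F test of edgeR, below called QL F test, over 12851 genes with the replicate number as a block), where 1.49% of all genes tested did. At an unadjusted p under 0.05 there was 1, Erap1, against 10.8% of all genes. DESeq2 with the same block also called 0, against 3.25% of all genes. The median log2 fold change of the 10 was -0.14 and that of all genes tested 0.01, with 3 of the 10 higher and 7 lower. For 7 of the 10 the 95% interval of the log2 fold change lay within 1 in either direction, so that a change beyond 2-fold was outside the interval. For B2m that interval ran from -0.89 to 0.43 and for H2-K1 from -0.30 to 0.34. Tap2, Tapbp and Psmb9 had wider intervals.

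H2-K1, the classical heavy chain K, stood at 1085, 822 and 598 CPM in replicates 1, 2 and 3 of ctrl and at 1171, 916 and 504 CPM in the 4OHT samples. It read 1103, 797 and 695 CPM in Fer1, 1029, 744 and 648 CPM in 4OHT+Fer1, and 1416 and 1034 CPM in medium. The groups overlapped, and the same-numbered replicates of the 4 supernatants were closer to each other than the replicates within a group were. The log2 fold change of 4OHT against ctrl was 0.02 (SE 0.15, adjusted p = 0.981 by edgeR's QL F test).

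H2-D1, the other classical heavy chain, had 1443, 1278 and 1203 CPM in ctrl, 1839, 1848 and 1086 CPM in 4OHT, and 1542, 887 and 991 CPM in 4OHT+Fer1. In Fer1 it had 1638, 1128 and 1133 CPM, and in medium 2382 and 1307 CPM. Each 4OHT sample lay above the 4OHT+Fer1 sample of its own number, though the groups overlapped. The log2 fold change was 0.26 (SE 0.19, adjusted p = 0.729) against ctrl and 0.50 (SE 0.19, unadjusted p = 0.0240, adjusted p = 0.317) against 4OHT+Fer1, by edgeR's QL F test. Reads of the 2 heavy chains and their relatives can be split between genes: the deposited count of H2-D1 was not whole in 14 of 14 samples, and that of H2-K1 in 5. Of the distinct stretches of 50 bases in the last 500 bases of their coding transcripts, 9.60% in H2-K1 and 8.92% in H2-D1 also occur in transcripts of other genes. With 16 class I heavy chain genes added up as 1 feature, the log2 fold change of 4OHT against ctrl was 0.15 (SE 0.17, adjusted p = 0.849), and against 4OHT+Fer1 it was 0.32 (SE 0.17, adjusted p = 0.506).

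B2m, the light chain, had 1440.4, 1354 and 1353 CPM in ctrl and 1778, 1747 and 475 CPM in 4OHT. It had 1728, 1346 and 909 CPM in Fer1, 1536, 826 and 759 CPM in 4OHT+Fer1, and 2196 and 1551 CPM in medium. The 4OHT sample of replicate 3 was the lowest of all 14, and the other 4OHT samples lay above all 3 ctrl samples. The log2 fold change of 4OHT against ctrl was -0.23 (SE 0.30, adjusted p = 0.871) and became 0.19 without that sample (adjusted p = 0.811, edgeR's QL F test). B2m lies wholly within Patl2 on the opposite strand, and whether counting used the strand is not given in the sources used here.

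Among the genes that make and trim peptides, Psmb8, an immunoproteasome subunit, had 277, 249 and 132 CPM in ctrl, 281, 227 and 160.3 CPM in Fer1, 252, 202 and 162 CPM in 4OHT+Fer1, 269.9, 168 and 122 CPM in 4OHT, and 387 and 273 CPM in medium. Every 4OHT sample was below the ctrl sample of its number, by 0.04, 0.56 and 0.10 in log2 CPM for replicates 1, 2 and 3, and the log2 fold change was -0.24 (SE 0.15, adjusted p = 0.659 by edgeR's QL F test). The other subunit, Psmb9, had 24.7, 32.1 and 38.6 CPM in ctrl, 37.9, 21.9 and 24.2 CPM in Fer1, 20.3, 13.9 and 14.8 CPM in 4OHT+Fer1, 40.1, 47.9 and 10.5 CPM in 4OHT, and 92.6 and 36.7 CPM in medium. Its 4OHT samples straddled those of ctrl, and its log2 fold change of -0.06 (SE 0.44) became 0.61 without replicate 3.

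Erap1, the peptidase of the endoplasmic reticulum, had 54.6, 44.6 and 44.3 CPM in ctrl and 34.7, 35.2 and 33.2 CPM in 4OHT. It read 48.3, 55.7 and 34.5 CPM in Fer1, 64.2, 41.8 and 31.4 CPM in 4OHT+Fer1, and 36.4 and 45.9 CPM in medium. The log2 fold change of 4OHT against ctrl was -0.47 (SE 0.21, unadjusted p = 0.0404), which missed the threshold after adjustment (adjusted p = 0.426, edgeR's QL F test). Under the alternatives it stayed between -0.62 and -0.36, with adjusted p between 0.247 and 0.921. The 3′ end of Erap1 lies within Cast, a gene on the opposite strand.

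Tap1, a subunit of the peptide pump, had 193, 106 and 57.2 CPM in ctrl, 187, 119 and 75.6 CPM in Fer1, 183, 118 and 87.2 CPM in 4OHT+Fer1, 170.3, 59.5 and 53.9 CPM in 4OHT, and 295 and 219 CPM in medium. Both medium samples lay above the other 12 samples. Every 4OHT sample was below the ctrl sample of its number, by 0.18, 0.83 and 0.09 in log2 CPM for replicates 1, 2 and 3, but the groups overlapped and the log2 fold change of -0.35 (SE 0.20) had an adjusted p of 0.590 by edgeR's QL F test. Tap2, its partner, had the fewest counts of the 10, with 16 to 232 per sample. It had 2.33, 4.83 and 25.6 CPM in ctrl, 3.87, 3.96 and 2.97 CPM in Fer1, 2.72, 2.02 and 4.20 CPM in 4OHT+Fer1, 5.58, 13.8 and 2.02 CPM in 4OHT, and 6.86 and 4.89 CPM in medium. The ctrl sample of replicate 3 stood far above the rest, and without it the log2 fold change of 4OHT against ctrl went from -0.26 (SE 0.80, adjusted p = 0.951) to 1.08 (adjusted p = 0.532, edgeR's QL F test).

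Tapbp, the loading chaperone tapasin, had 401, 549 and 118 CPM in ctrl, 504, 294 and 429.8 CPM in Fer1, 205, 605 and 466 CPM in 4OHT+Fer1, 351, 461 and 338 CPM in 4OHT, and 686 and 433 CPM in medium. Again the ctrl sample of replicate 3 stood apart, here as the lowest, and the log2 fold change of 0.18 (SE 0.47) became -0.31 without it. Neither passed (adjusted p = 0.938 and 0.845, edgeR's QL F test). Tapbp shares 3422 bases with Zbtb22 on the same strand, and its deposited count was not whole in 13 of 14 samples.

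Nlrc5, the transactivator, had 41.9, 26.6 and 19.3 CPM in ctrl, 49.99, 25.97 and 25.1 CPM in Fer1, 55.0, 31.6 and 31.9 CPM in 4OHT+Fer1, 56.6, 20.6 and 15.3 CPM in 4OHT, and 86.2 and 43.7 CPM in medium. Replicate 1 was the highest of its group in every group. The log2 fold change of 4OHT against ctrl was -0.06 (SE 0.20, adjusted p = 0.956 by edgeR's QL F test), with 1 replicate number higher and 2 lower.

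**Figure D2:**
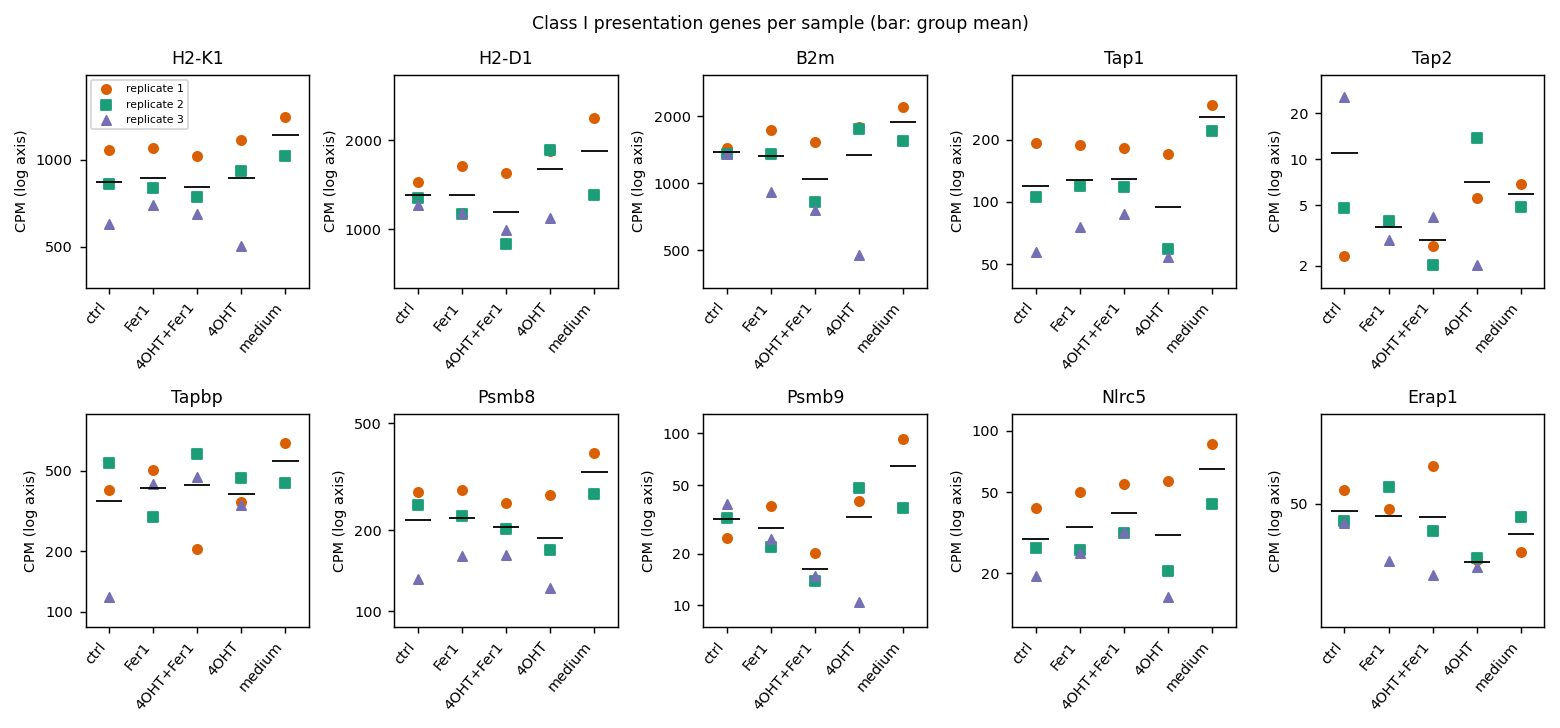
CPM of each member gene in each of the 14 samples, on a log axis that differs between panels. Points are samples coloured and shaped by replicate number, and the bar is the group mean. Replicate 1 lies highest and medium highest within replicates 1 and 2 for H2-K1, Tap1, Psmb8 and Nlrc5.

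The 4OHT+Fer1 supernatant came from fibroblasts treated with 4OHT but kept from ferroptosis. The 4OHT group differs from it by the death of the cells and by the absence of ferrostatin-1, which cannot be told apart here. None of the 10 members passed, against 1.35% of all genes tested (edgeR's QL F test, adjusted p). At an unadjusted p under 0.05 there were 4 of 10, against 11.8% of all genes, 2 in each direction: Tap1 with a log2 fold change of -0.57 (SE 0.20, adjusted p = 0.235), Nlrc5 with -0.51 (SE 0.20, adjusted p = 0.307), H2-D1, given above, and Psmb9 with 0.97 (SE 0.44, adjusted p = 0.422). DESeq2 called 0, against 3.1% of all genes. For Tap1 all 3 replicate numbers were lower in 4OHT, by 0.10, 0.99 and 0.69 in log2 CPM for replicates 1, 2 and 3. For Nlrc5 replicate 1 differed by 0.04 in the other direction. Psmb9 was higher in 2 of 3. Its lowest value was the 4OHT sample of replicate 3, at 10.5 CPM. Without that sample its log2 fold change was 1.48 (adjusted p = 0.0402, edgeR's QL F test), so that 1 member passed, where 3.67% of all genes did. That fit was chosen after the values had been seen. All comparisons with the 4OHT group share its 3 samples, and all those with ctrl share theirs, so they are not independent of each other.

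Without cell death, the 4OHT+Fer1 samples differed from ctrl in none of the 10 members, against 0.0311% of all genes (edgeR's QL F test, adjusted p). At an unadjusted p under 0.05 there were 2, against 4.31% of all genes: Psmb9, at -1.03 (SE 0.44, adjusted p = 0.948), and Nlrc5, at 0.46 (SE 0.19, adjusted p = 0.948). Psmb9 was lower and Nlrc5 higher in 3 of 3 replicate numbers. DESeq2 called 0, against 0.14% of all genes. Ferrostatin-1 alone against ctrl gave 0 members, 0 also at an unadjusted p under 0.05 and 0 by DESeq2, where the shares of all genes were 0%, 1.14% and 0.0233%. The log2 fold changes of the 10 ran from -1.30 (Tap2) to 0.32 (Tapbp), with a median of 0.01. The difference of the 4OHT effect without and with ferrostatin-1 was tested as an interaction and passed for 0 of the 10 (0.0311% of all genes), with 0 at an unadjusted p under 0.05 (6.20% of all genes) and 0 by DESeq2 (0.591% of all genes). Its 95% interval lay within 1 log2 unit for 3 of the 10 only, so this comparison was the least precise.

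Fresh medium was compared with the supernatant of living fibroblasts. The supernatant can differ from it both by what the cells release and by what they consume, which this comparison cannot tell apart. Compared with medium, ctrl supernatant went with lower Tap1 and lower Nlrc5. In replicates 1 and 2, Tap1 had 295 and 219 CPM in medium and 193 and 106 CPM in ctrl. Nlrc5 had 86.2 and 43.7 CPM in medium and 41.9 and 26.6 CPM in ctrl. Replicate 3 of ctrl, which has no counterpart in medium, was lower still, at 57.2 CPM for Tap1 and 19.3 CPM for Nlrc5. The log2 fold change of ctrl against medium was -0.94 for Tap1 (SE 0.22, adjusted p = 0.0156) and -0.90 for Nlrc5 (SE 0.22, adjusted p = 0.0196), that is 0.521 and 0.536 of the level in medium. These 2 of the 10 passed, both lower, where 10.9% of all genes passed and 5.58% passed as lower (edgeR's QL F test). At an unadjusted p under 0.05 there were 3 of 10, against 24.0% of all genes, the third being Psmb8 (-0.39, SE 0.17, adjusted p = 0.180). H2-K1 followed with -0.37 (SE 0.17, unadjusted p = 0.0505, adjusted p = 0.209). The median of the 10 was -0.38 and that of all genes -0.01, with 8 of the 10 lower. All 3 ctrl samples lay below both medium samples for Tap1, Nlrc5 and B2m, as did 17.1% of all genes. B2m nevertheless differed by -0.12 only (SE 0.35, adjusted p = 0.884) in the model. With the study's further limit, an absolute log2 fold change above 1, 0 members passed, against 3.69% of all genes that passed as lower.

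Ferroptotic supernatant against medium gave the same 2 genes. Tap1 had a log2 fold change of -1.29 (SE 0.22, adjusted p = 0.00717), or 0.410 of its level in medium, and Nlrc5 of -0.96 (SE 0.22, adjusted p = 0.0269), or 0.515 of it. The share of all genes that passed was 4.26%, and 2.34% passed as lower (edgeR's QL F test). Psmb8 missed the threshold at -0.63 (SE 0.17, adjusted p = 0.0606), and it passed with DESeq2 (adjusted p = 0.0162), by which 6.66% of all genes passed. At an unadjusted p under 0.05 the members were these 3, against 15.8% of all genes. All 4OHT samples lay below both medium samples for Tap1, Psmb8 and Erap1, as did 13.8% of all genes. Nlrc5 was not among them, since its 4OHT sample of replicate 1, at 56.6 CPM, exceeded the medium sample of replicate 2, at 43.7 CPM. Under the limit of 1 on the log2 fold change, 1 member remained, Tap1, against 1.64% of all genes that passed as lower. The calls of Tap1 and Nlrc5 against medium were lost without the replicate block and without replicate 1 or 2, where medium has 1 sample left. Without the block, the log2 fold changes of Tap1 and Nlrc5 were -1.11 and -1.15 for ctrl against medium (adjusted p = 0.348 and 0.291) and -1.44 and -1.07 for 4OHT against medium (adjusted p = 0.321 and 0.493), by edgeR's QL F test, and the share of all genes that passed fell to 4.07% and 0.809%. Without replicate 1 or 2 these log2 fold changes ran from -1.21 to -0.74 for ctrl and from -1.67 to -0.87 for 4OHT, where 0.658% to 1.19% and 0% to 0.0151% of all genes passed.

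**Figure D3:**
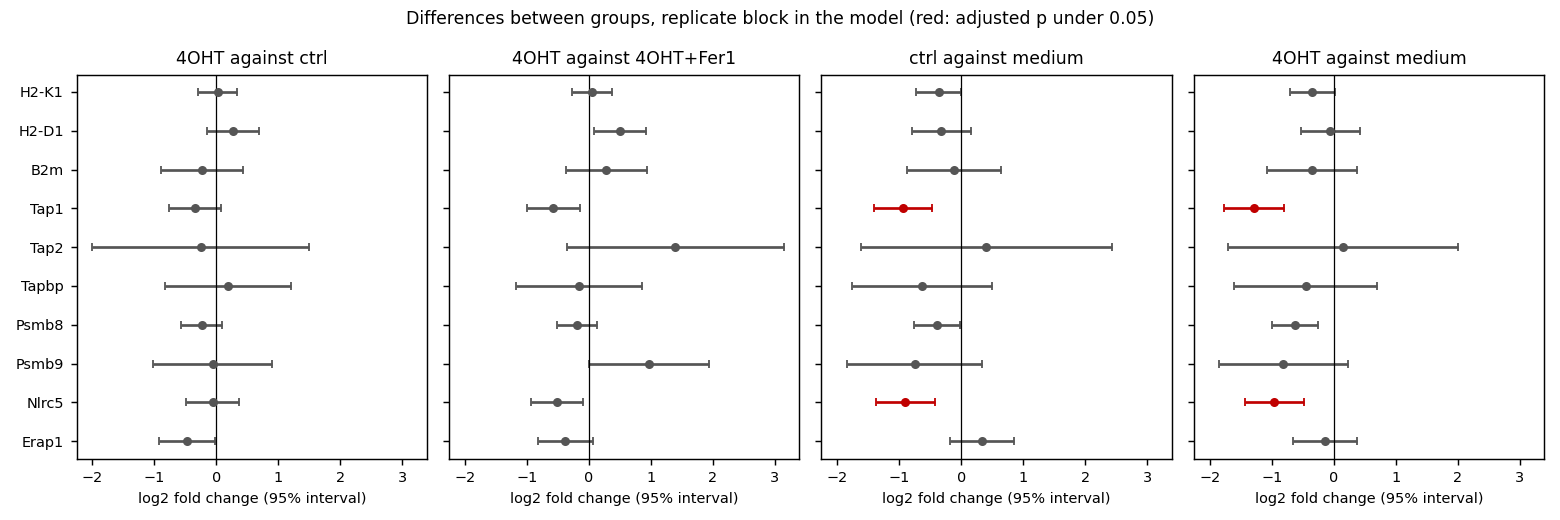
Log2 fold change of each member gene in 4 comparisons, with its 95% interval, from the model with the replicate block. Rows are genes, and red marks an adjusted p under 0.05. Red points are Tap1 and Nlrc5 in the 2 comparisons with medium, and no member is red in 4OHT against ctrl or against 4OHT+Fer1.

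Medium was the highest sample of both its replicate numbers for H2-K1, Tap1, Psmb8 and Nlrc5, 4 of the 10, where 15.4% of all genes tested had this order. For the group means, the order of Tap1 was medium (257 CPM), 4OHT+Fer1 (129 ± 48.9 CPM, SD, n = 3), Fer1 (127 ± 56.4), ctrl (119 ± 69.0) and 4OHT (94.6 ± 65.6). That of Nlrc5 was medium (65.0 CPM), 4OHT+Fer1 (39.5 ± 13.4), Fer1 (33.7 ± 14.1), 4OHT (30.8 ± 22.5) and ctrl (29.3 ± 11.5). Neighbours among the 4 supernatants lay within 1 SD of each other for both genes, and the step from medium to the next group was larger than the SD of that group. These means and SDs are not adjusted for replicate number. Medium has no replicate 3, which stood in log2 at -1.41 for Tap1 and -1.19 for Nlrc5 against replicate 1. The step from medium therefore also holds this difference, and so do the SDs.

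Some class I genes also differed by replicate number. In all 4 supernatant groups replicate 1 was the highest for H2-K1, B2m, Tap1, Psmb8 and Nlrc5, and medium replicate 1 was above medium replicate 2 for each of them. Tested in the same model over the 3 numbers, a test chosen after the values were seen, the replicate number passed for H2-K1, Tap1, Psmb8 and Nlrc5, 4 of the 10, against 10.2% of all genes (edgeR's QL F test, adjusted p = 0.00290, 0.000583, 0.00189 and 0.000846). H2-D1 and B2m missed it (adjusted p = 0.0556 and 0.0824). Erap1, Psmb9, Tapbp and Tap2 did not pass either (adjusted p = 0.265, 0.529, 0.720 and 0.722, edgeR's QL F test). For Tap2 replicate 3 was above replicate 1, by 0.82 in log2, and replicate 1 was the highest in 0 of the 4 supernatant groups. Replicate 3 was below replicate 1 by 1.41 in log2 for Tap1, by 1.19 for Nlrc5, by 0.93 for Psmb8 and by 0.85 for H2-K1. For Tap1 that step exceeded the 0.94 between ctrl and medium, though the 2 were not tested against each other. Without replicate 1 no member passed, against 4.26% of all genes, and without replicate 3 there were 2, against 0.775%. The number is taken to be the mouse, which the labels do not state, so mouse, day and preparation cannot be told apart.

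The genes that moved most like the 10 over the 14 samples were found from the mean of the members' standardised log2 CPM, which ran from -1.40 (4OHT replicate 3) to 1.37 (medium replicate 1). Pearson's r was 0.971 for Rnf114, 0.964 for Trim30b, 0.963 for Tent4a and 0.961 for Isg20, with Spearman's rho between 0.912 and 0.956. Without those 2 samples r was between 0.911 and 0.969. These 4 are among the 5 highest of all tested genes that are no member and not predicted genes, so high values were to be had by selection, and the samples share mice and fibroblast supernatants.

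Other genes of the pathway came from lists chosen with results of these data known. Among 16 class I heavy chain genes, the classical 2 included, 11 were tested. In 4OHT against ctrl 0 passed (edgeR's QL F test, 1.49% of all genes), with 2 at an unadjusted p under 0.05 (10.8% of all genes). The smallest p were those of H2-T24 (-0.63, SE 0.20, adjusted p = 0.189) and H2-T23 (-0.68, SE 0.25, adjusted p = 0.306), both non-classical genes. H2-T24 was lower in 4OHT than in 4OHT+Fer1 (-0.94, SE 0.20, adjusted p = 0.0385), the 1 heavy chain gene to pass there (1.35% of all genes). It was also lower in 4OHT than in medium (-1.32, SE 0.21, adjusted p = 0.00571, with 2.34% of all genes lower). It had 24.0, 22.03 and 7.21 CPM in 4OHT, 46.4, 33.3 and 18.2 CPM in 4OHT+Fer1, and 48.8 and 57.6 CPM in medium. In ctrl against medium H2-M2 passed (-2.51, SE 0.64, adjusted p = 0.0261, with 5.58% of all genes lower), on levels of 0.203 to 9.61 CPM in ctrl that were highest in replicate 3.

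Proteasome genes were counted by type. Of the 5 further immunoproteasome and proteasome activator genes, Psme2, a subunit of the PA28 activator, and Psmb10, the remaining immunoproteasome catalytic subunit, were lower in ctrl than in medium (-0.69, SE 0.15, adjusted p = 0.0124 and -0.93, SE 0.21, adjusted p = 0.0135). Both were also lower in 4OHT than in medium (-0.85, SE 0.15, adjusted p = 0.00861 and -0.99, SE 0.21, adjusted p = 0.0205, edgeR's QL F test). In each comparison these were the 2 of the 5 to pass. Of all genes, 5.58% passed as lower in ctrl against medium and 2.34% in 4OHT against medium. Psmb10 had 124, 99.3 and 57.6 CPM in ctrl and 232 and 156 CPM in medium, without overlap. Of the 3 constitutive catalytic subunits, the counterparts of the immunoproteasome ones, 0 passed in any comparison by edgeR's QL F test (0% to 10.9% of all genes), 0 also at an unadjusted p under 0.05 (1.14% to 24.0%). Their median in ctrl against medium was 0.21. Psmb7 had 0.21 (SE 0.19, adjusted p = 0.552) and Psmb6 0.26 (SE 0.28, adjusted p = 0.633). Of the 28 genes of the proteasome core and cap 0 passed in any comparison (0% to 10.9% of all genes), with 0 to 2 at an unadjusted p under 0.05 (1.14% to 24.0%) and a median of 0.15 in ctrl against medium. Those of smallest p there were Psmd14 (0.61, SE 0.26, adjusted p = 0.168) and Psmd12 (0.46, SE 0.21, adjusted p = 0.220), both subunits of the cap. The difference between the lists was not tested.

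Of the 8 genes of peptide loading and folding 0 passed in any comparison by edgeR's QL F test (0% to 10.9% of all genes), with 0 or 1 at an unadjusted p under 0.05 (1.14% to 24.0%). In ctrl against medium the smallest p were those of Tapbpl (-0.68, SE 0.33, adjusted p = 0.234), a relative of tapasin, and Uggt1 (0.34, SE 0.18, adjusted p = 0.274), the folding sensor of the endoplasmic reticulum. Of 7 tested peptidases of the cytosol and endosome, Lnpep, an endosomal trimming enzyme, was lower in ctrl than in medium (-0.63, SE 0.16, adjusted p = 0.0218), and of 10 cross-presentation genes Cybb, the catalytic subunit of the phagocyte NADPH oxidase, was (-0.75, SE 0.14, adjusted p = 0.00535). Each was the 1 gene of its list to pass as lower, where 5.58% of all genes did.

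Among 19 genes listed as regulators of class I transcription, 6 were lower in ctrl than in medium, where 5.58% of all genes were, with a list median of -0.33. Those of smallest p were Irf2 (-1.03, SE 0.15, adjusted p = 0.000981), Irf1 (-1.36, SE 0.23, adjusted p = 0.00210), Batf3 (-2.71, SE 0.45, adjusted p = 0.00215, at most 4.94 CPM in any sample) and Relb (-0.90, SE 0.21, adjusted p = 0.0158). Irf1, an interferon-induced factor, had 83.2, 64.4 and 72.0 CPM in ctrl and 219 and 149 CPM in medium. In 4OHT against medium 3 were lower (2.34% of all genes), among them Irf2 (-0.77, SE 0.15, adjusted p = 0.0144) and Stat2 (-1.09, SE 0.22, adjusted p = 0.0148). In 4OHT against ctrl 1 of 19 passed, Nfkb2, a subunit of the non-canonical NF-kB pathway, which was higher (0.75, SE 0.15, adjusted p = 0.0310), as were 0.482% of all genes. All adjusted p are from edgeR's QL F test. Whether each listed gene, Batf3 among them, acts on class I genes was not tested.

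Of 10 genes of interferon receptors and signalling, Tyk2 (-0.64, SE 0.15, adjusted p = 0.0154), Ifnar2 (-0.62, SE 0.15, adjusted p = 0.0160) and Socs1 (-1.69, SE 0.46, adjusted p = 0.0352) were lower in ctrl than in medium, where 5.58% of all genes were. Of the interferon-stimulated genes 18 of 31 were lower in ctrl than in medium, against 5.58% of all genes, and 17 of 31 lower in 4OHT than in medium, against 2.34%, with medians of -1.12 and -1.30. Gbp2, a guanylate-binding protein, had -2.21 (SE 0.25, adjusted p = 0.000190) and Rsad2, the antiviral enzyme viperin, -2.12 (SE 0.25, adjusted p = 0.000263) in ctrl against medium. In 4OHT against ctrl 0 of the 31 passed by edgeR's QL F test, 2 had an unadjusted p under 0.05, the median was -0.13, and the smallest p were those of Bst2 (-0.52, SE 0.20, adjusted p = 0.356) and Gbp2 (0.50, SE 0.22, adjusted p = 0.437).

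MHC class II genes, which present peptides from endosomes to CD4 T cells, are set beside class I on these samples for contrast, and their direction was known when they were listed. Of 11 tested, 5 were higher in 4OHT than in ctrl, where 0.482% of all genes were: Cd74 (1.86, SE 0.20, adjusted p = 0.00283), Ciita (1.56, SE 0.25, adjusted p = 0.0128), H2-Ab1 (1.79, SE 0.30, adjusted p = 0.0155), H2-Aa (1.75, SE 0.32, adjusted p = 0.0216) and 1 more. The class II transactivator Ciita had 12.3, 7.44 and 36.0 CPM in ctrl and 39.6, 31.3 and 64.2 CPM in 4OHT, higher in every replicate number, whereas its class I counterpart Nlrc5 was higher in 1 of 3. In ctrl against medium 7 of the 11 were lower, against 5.58% of all genes, with a median of -1.70. Whether class I and class II genes differ in their change was not tested.

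**Figure D4:**
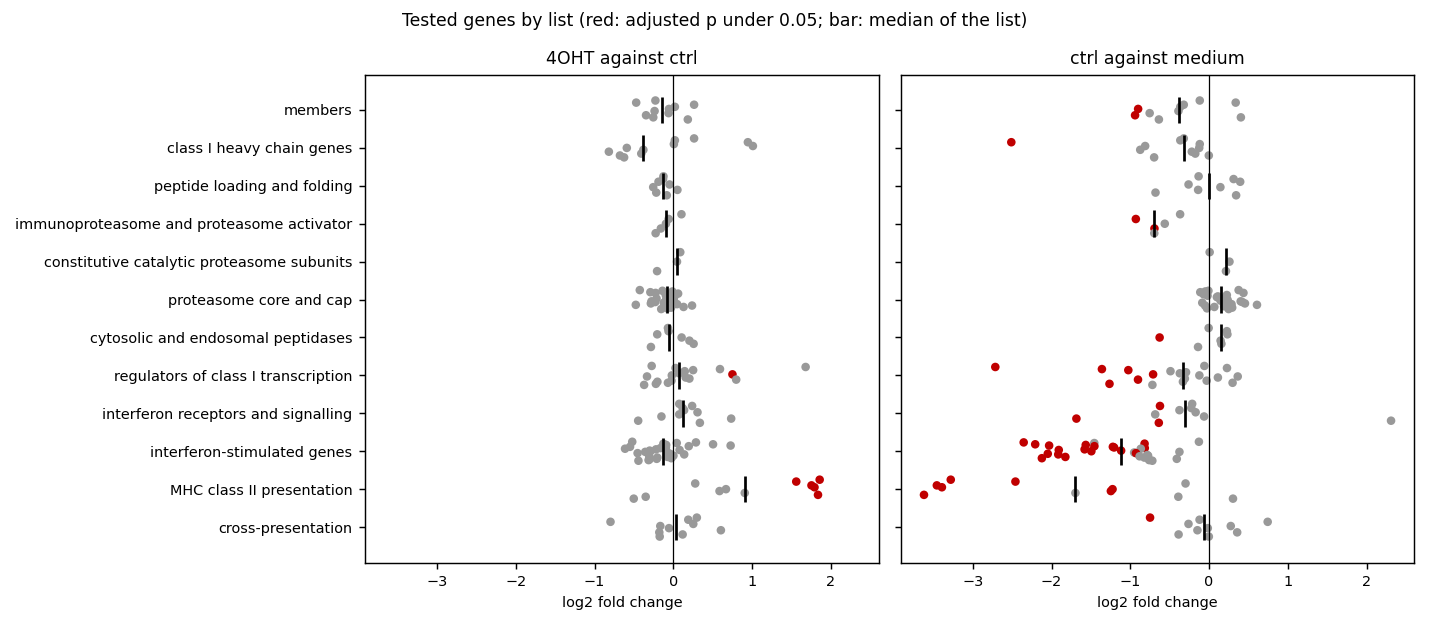
Log2 fold change of every tested gene of 12 lists, in 4OHT against ctrl on the left and ctrl against medium on the right. Each point is a gene, red where its adjusted p is under 0.05, and the bar is the median of the list. On the left the red points are 5 class II genes and Nfkb2, and on the right they include 18 interferon-stimulated genes and the members Tap1 and Nlrc5.

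Some markers of other cells differed in the comparisons with medium. T and NK cell markers summed to 0.222 to 0.508 CPM in medium and 0.203 to 0.704 CPM in ctrl. B cell markers summed to 1.90 to 3.00 CPM in medium and 0.552 to 3.22 CPM in ctrl. For both types medium and ctrl overlapped. The summed dendritic cell markers (7 listed, none tested) were 3.78 to 3.94 CPM in medium, 0.608 to 0.804 CPM in ctrl and 0 to 2.21 CPM in 4OHT. The summed neutrophil markers were 34.3 to 47.2 CPM in medium, 2.87 to 15.1 CPM in ctrl and 4.05 to 25.3 CPM in 4OHT. Of the 3 tested, 1 was lower in ctrl than in medium, S100a8 (-1.49, SE 0.32, adjusted p = 0.0101, edgeR's QL F test), where 5.58% of all genes were. In 4OHT against medium 0 of the 3 were lower, against 2.34% of all genes. Ly6g was at 0 throughout. Fibroblast markers summed to 42.6 to 125 CPM in medium, 20.3 to 67.1 CPM in ctrl, 23.2 to 148 CPM in Fer1, 17.6 to 117 CPM in 4OHT+Fer1 and 18.9 to 74.0 CPM in 4OHT, and the 5 ranges overlapped. Gene by gene, 4 of the 8 were tested. By edgeR's QL F test 3 of these 4 were lower in ctrl than in medium, against 5.58% of all genes, with a median of -1.19. In 4OHT against medium 2 of the 4 were lower, against 2.34% of all genes, with a median of -1.15. Of 8 macrophage markers 3 were lower in ctrl than in medium, against 5.58% of all genes: Adgre1 (-0.73, SE 0.17, adjusted p = 0.0146), Mertk (-0.79, SE 0.21, adjusted p = 0.0296) and Fcgr1 (-0.80, SE 0.22, adjusted p = 0.0374, edgeR's QL F test). The part of these markers in the differences of Tap1 and Nlrc5 was not tested.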

How the data were processed

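RNA of 14 pBMDM samples in 5 groups was sequenced with a 3′ QuantSeq protocol. The authors aligned and quantified the reads with STAR 2.7.10a and Salmon 1.5.2, per the submitters' processing notes, and deposited expected counts per gene without normalization. The notes list the builds GRCh38 and GRCm38. The deposited identifiers are mouse genes, and coordinates here come from GENCODE M21 on GRCm38. The authors' table of DESeq2 comparisons (fold changes and p-values) and its 14 CPM columns were not used.

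Expected counts were rounded (30109 values were not whole), filtered with filterByExpr (minimum count 10), scaled by TMM factors (0.910 to 1.06) and tested two-sided with edgeR 4.0.16 in R 4.3.3 (quasi-likelihood F test). All 14 samples entered 1 model with group and replicate number, since the study's design has mouse ID in it. A gene passed at a Benjamini-Hochberg adjusted p under 0.05 over all 12851 genes. Standard errors were derived from the F statistic, and intervals are 95%. Within-replicate differences used log2 CPM with a prior count of 2. Total counts were 7823051 to 11052352. Floors cover counting error only.

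Replicate numbers paired the samples: the median r between deviations from group means, over genes, was 0.247 for 26 pairs sharing a number and -0.139 for 52 that did not. That the number is the mouse was assumed. Replicates differed by a chi-square per degree of freedom of 10.9 to 79.4, so none was a library deposited again. The labels do not say that replicates are separate cultures, so p-values measure the spread between these samples.

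The members and gene lists were chosen with earlier results of these data known. All 10 members are named. From other lists, up to 4 genes of smallest p that passed are named per comparison, and where none passed up to 2 of smallest p. Further genes are named only where they add to a count. Some genes that these rules select are not reported here. Scripts were tested on simulated data. Alternatives were no block, DESeq2 1.42.0, only the groups compared, other size factors, no filter, a fold limit, summed heavy chains and left-out samples.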

Additional observations from a re-analysis of the deposited data

How the results depend on the processing

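The count of class I genes that passed was the same in all 6 comparisons and the interaction with DESeq2 size factors and with no filter on low counts. With DESeq2 and the replicate block it was 3 in place of 2 for 4OHT against medium, where 6.66% of all genes passed. With only the groups compared it was 3 for ctrl and 3 for 4OHT against medium, where 20.5% and 12.1% of all genes passed. In the other comparisons both gave the same count. Without the replicate block it was 0 for ctrl and 0 for 4OHT against medium in place of 2 and 2 (4.07% and 0.809% of all genes), and with the limit on the fold change it was 0 and 1. With single samples or replicate numbers left out it ran from 0 to 2 for ctrl against medium (0.658% to 12.8% of all genes), from 0 to 3 for 4OHT against medium (0% to 6.06%), from 0 to 1 for 4OHT against 4OHT+Fer1 (0% to 3.67%), and from 0 to 6 in place of 4 for the replicate number (0.775% to 11.4%). The last result, its alternatives and the fits without the ctrl or the 4OHT sample of replicate 3 were chosen after seeing the data. Without replicate 1 or 2, medium is 1 sample, assumed to vary like the other groups.

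None of the log2 fold changes that changed sign had passed. Without the replicate block, Psmb9 and Nlrc5 had 0.0513 and 0.0738 in 4OHT against ctrl. With only the groups compared, Tap2 had -0.71 in ctrl against medium and H2-D1 0.0421 in 4OHT against medium. With samples left out, the ranges in 4OHT against ctrl were -0.0482 to 0.18 for H2-K1, -0.59 to 0.33 for B2m, -1.52 to 1.41 for Tap2, -0.31 to 0.47 for Tapbp, -0.52 to 0.61 for Psmb9 and -0.36 to 0.12 for Nlrc5. In 4OHT against 4OHT+Fer1 they were -0.0773 to 0.26 for H2-K1, -0.16 to 0.68 for B2m and -0.42 to 0.0592 for Tapbp. In ctrl against medium they were -0.56 to 0.0137 for H2-D1, -0.40 to 0.15 for B2m, -0.78 to 1.48 for Tap2 and -1.17 to 0.16 for Psmb9. In 4OHT against medium they were -0.46 to 0.23 for H2-D1, -0.98 to 0.69 for Tap2, -0.87 to 0.17 for Tapbp and -0.27 to 0.16 for Erap1. The cause was not tested. With only the groups compared, Psmb9 passed in ctrl against medium (-1.03, adjusted p = 1.59e-05, edgeR's QL F test) and Psmb8 in 4OHT against medium (adjusted p = 0.0109). Tap2, the member of fewest counts, had 23, 48 and 232 counts in the ctrl samples, a CV of 117%.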
